A study of Homo sapiens with 12 samples.

Results

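The nuclear genes of the respiratory chain encode most subunits of complexes I to V of the inner mitochondrial membrane. They were followed here in 12 RNA-seq libraries of LNCaP prostate cancer cells. A row of the count tables was a member when its name matched a subunit pattern (NDUF with A, B, C, S or V and a number, NDUFAB1, SDHA to SDHD, the UQCR genes, CYC1, the ubiquitously expressed COX genes, or ATP5 with any ending). Names that ended in P plus digits, as pseudogene names do, were left out, which removed 42 rows. The rule found 95 of 63299 rows: 51 for complex I, 4 for complex II, 9 for complex III, 12 for complex IV and 19 for complex V. Of these, 81 lay on the reference chromosomes. The other 14 were copies of NDUFA3, NDUFA6 and NDUFS1 on alternative sequences, with a total count of 0. After the filter on low counts 79 members were tested among 17191 genes, 37, 4, 9, 12 and 17 for complexes I to V. The untested rows on the reference chromosomes were ATP5J2LP, with a count of 0, and ATP5L2, with a mean count of 1.3 per library. The count tables use older symbols for the ATP synthase, so that ATP5A1, ATP5B, ATP5C1, ATP5D and ATP5E are the present ATP5F1A to ATP5F1E, ATP5G1 to ATP5G3 are ATP5MC1 to ATP5MC3, ATP5O is ATP5PO, ATP5I is ATP5ME and ATP5J is ATP5PF. ATP5S and ATP5SL, now DMAC2L and DMAC2, match the pattern but are not textbook subunits of the enzyme. NDUFA4 is named for complex I and was counted with complex IV, where it is now placed.

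The cells were LNCaP-shPRMT5, LNCaP cells with a hairpin against the arginine methyltransferase PRMT5 that doxycycline switches on. All 4 groups of 3 libraries carried the hairpin. The non-irradiated control (Dox-, 0 Gy) and the irradiated control (Dox-, 2 Gy) received no doxycycline, and the non-irradiated knockdown (Dox+, 0 Gy) and the irradiated knockdown (Dox+, 2 Gy) received 1 µg/mL every 48 h. Irradiated cells were collected 24 h after the dose. Doxycycline and hairpin induction always went together, so their effects cannot be told apart. The irradiated and the non-irradiated libraries were deposited as separate tables, so a radiation effect and any other table difference cannot be told apart. The labels do not state whether a group's libraries are separate cultures, and p-values then measure only the spread between these libraries. In bulk RNA, fewer cells of a type and less RNA per cell cannot be told apart.

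The respiratory chain passes electrons from NADH (complex I) and succinate (complex II) through complexes III and IV to oxygen and pumps protons, and complex V, the ATP synthase, uses the proton gradient to make ATP. Complexes I, III, IV and V are built from nuclear and mitochondrial gene products together, so both genomes must supply subunits in matching amounts, and complex II is wholly nuclear. Many promoters of these genes carry sites for the transcription factors NRF1, GABP and YY1, and prostate tumours are known to depend more on mitochondrial respiration than the normal gland does.

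PRMT5 itself fell by 2.67 on the log2 scale in the knockdown at 0 Gy and fell by 2.86 at 2 Gy. Total counts ran from 14801939 to 33158865 per library, so that 3 counts, the limit that a count of 0 allows, were worth 0.0905 to 0.203 CPM, the count scaled to the library total. All 10 luminal prostate markers were tested and summed to between 7041 and 10563 CPM in every library. The 5 leukocyte markers summed to at most 0.551 CPM, and 2 to 4 of the 5 were at 0. The 3 basal markers summed to 0.731 to 9.80 CPM, the 3 endothelial markers to 6.06 to 49.3 CPM, the 8 fibroblast markers to 12.5 to 27.7 CPM and the 4 neuroendocrine markers to 25.4 to 95.8 CPM. Replicate 1 of the irradiated control and replicate 1 of the irradiated knockdown stood apart from their mates: their chi-square per gene against those mates was 62.3 to 144, against 9.79 to 32.7 for all other replicate pairs. Nuclear respiratory chain genes took 1.59% and 1.45% of the counts in these libraries, 1.07 to 1.12% in the other irradiated libraries and 0.969 to 1.05% in the non-irradiated ones. The luminal markers' centred median was 0.42 and 0.20 in them; its part in the results was not tested. Medians, counts and calls that rest on these libraries are therefore given with and without them.

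The start regions of 5 members are given below, with the short sequence words marked that were searched for in member promoters. Of the 79 tested members 64 matched a promoter in the RefSeq table (GRCh38.p14), each taken as 300 bases from 250 before to 50 after the annotated start. They were searched on both strands for GCATGCGC (NRF1), CCGGAAG (GABPA), AAGATGGCG (YY1), GGGCGG (SP1) and CCAAT (NF-Y), none of which contains another. Capitals mark these words or their reverse complements. ATP5J (chr21:25735005-25735304, minus strand) and SDHB (chr1:17053983-17054282, minus strand) are shown because they hold 4 of the 5 words each, ATP5G2 (chr12:53676034-53676333, minus strand) and ATP5O (chr21:33915755-33916054, minus strand) because they were higher after irradiation in both arms, and UQCRFS1 (chr19:29213102-29213401, minus strand) because it was lower in both knockdown comparisons. NDUFA6 and COX6A1 also hold 4 of the words and are not shown. UQCRC2 was also higher after irradiation in both arms and is not shown.
ATP5J: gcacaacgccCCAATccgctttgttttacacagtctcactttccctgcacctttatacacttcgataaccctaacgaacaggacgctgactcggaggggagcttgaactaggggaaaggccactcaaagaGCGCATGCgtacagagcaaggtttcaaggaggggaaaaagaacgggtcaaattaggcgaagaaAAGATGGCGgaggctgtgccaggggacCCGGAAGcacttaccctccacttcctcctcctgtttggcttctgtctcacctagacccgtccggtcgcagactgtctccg
SDHB: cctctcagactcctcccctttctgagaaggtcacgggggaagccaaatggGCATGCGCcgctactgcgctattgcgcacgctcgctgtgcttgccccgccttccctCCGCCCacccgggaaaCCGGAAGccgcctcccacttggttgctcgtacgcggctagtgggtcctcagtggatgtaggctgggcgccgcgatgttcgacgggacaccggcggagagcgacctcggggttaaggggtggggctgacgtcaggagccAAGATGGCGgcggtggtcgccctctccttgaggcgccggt
ATP5G2: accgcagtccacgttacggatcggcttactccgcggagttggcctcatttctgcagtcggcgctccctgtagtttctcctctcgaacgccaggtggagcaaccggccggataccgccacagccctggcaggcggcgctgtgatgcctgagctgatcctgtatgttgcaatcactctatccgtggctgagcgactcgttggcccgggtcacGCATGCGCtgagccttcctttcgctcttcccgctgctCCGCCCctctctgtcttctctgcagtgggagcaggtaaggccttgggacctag
ATP5O: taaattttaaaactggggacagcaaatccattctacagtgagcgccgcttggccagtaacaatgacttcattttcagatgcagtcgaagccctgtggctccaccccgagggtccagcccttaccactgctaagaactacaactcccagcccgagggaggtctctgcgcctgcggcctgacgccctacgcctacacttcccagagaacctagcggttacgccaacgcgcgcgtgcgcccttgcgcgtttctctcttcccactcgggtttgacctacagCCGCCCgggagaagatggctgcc
UQCRFS1: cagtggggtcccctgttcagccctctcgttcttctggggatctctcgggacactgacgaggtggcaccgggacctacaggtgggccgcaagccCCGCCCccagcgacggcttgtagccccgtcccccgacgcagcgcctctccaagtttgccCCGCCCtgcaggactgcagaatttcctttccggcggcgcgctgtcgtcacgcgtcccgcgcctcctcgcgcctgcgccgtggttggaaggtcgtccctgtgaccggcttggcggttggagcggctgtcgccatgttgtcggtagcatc
The NRF1 word stood in 13 of 64 member promoters (20.3%) and in 3.74% of 22199 protein-coding promoters of the same length. The GABPA word stood in 19 (29.7%, against 12.8%) and the YY1 word in 8 (12.5%, against 2.41%). The SP1 word was in 38 (59.4%, against 56.3%) and the NF-Y word in 21 (32.8%, against 34.7%), shares near those of all protein-coding genes. By complex, the NRF1 word was in 5 of 32 promoters of complex I, 2 of 3 of complex II, 0 of 7 of complex III, 2 of 10 of complex IV and 4 of 12 of complex V. A word is a match of letters, not a bound site. The annotated start of ATP5J lies 82 bases from that of GABPA, on the other strand, and the start of ATP5F1 lies 208 bases from that of WDR77, the PRMT5 partner in the methylosome.

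Per exon length the members spanned a wide range. ATP5B, the catalytic β subunit of the ATP synthase, had the highest mean level over the 12 libraries, 648 RPKM (CPM per 1000 bases of merged exon, computed here). It was followed by the complex I subunits NDUFS5 (274 RPKM) and NDUFB4 (209 RPKM), COX7C of complex IV (187 RPKM), UQCRH of complex III (181 RPKM), COX8A (144 RPKM) and COX6B1 (130 RPKM). The lowest levels belonged to complex I genes: NDUFA7 (1.09 RPKM), NDUFV2 (1.80 RPKM), NDUFA9 (1.91 RPKM), NDUFA13 (2.51 RPKM), NDUFA11 (3.37 RPKM) and NDUFB8 (3.77 RPKM). Subunits that stand in the same complex once each, such as NDUFV1 (47.4 RPKM) and NDUFV2, thus differed widely in counted RNA. Exons of several low genes are shared with a neighbour on the same strand: 28.4% for NDUFV2, 33.8% for NDUFB8, 32.3% for NDUFA7 and 21.0% for NDUFA13. The 12 members with at least 10% such overlap had a median of 15 RPKM and the other 67 a median of 44.1 RPKM; how the counting treated shared exons is not stated, and the part of overlap in these levels was not tested. Among the paralogues that encode the same c subunit of the ATP synthase ring, ATP5G2 was highest (51.4 RPKM), before ATP5G3 (29.5 RPKM) and ATP5G1 (20.2 RPKM). COX7A2 stood at 44.1 RPKM and its relative COX7A2L, which joins respiratory complexes into supercomplexes, at 16.4 RPKM. These orders rest on the merged exon length that divides the counts. COX7A2 has 1922 bases and a total count of 25599, and COX7A2L 5605 bases and 27483. ATP5G2 has 3991 bases and a total count of 62329, and ATP5G3 6780 bases and 60936.

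**Figure D1:**
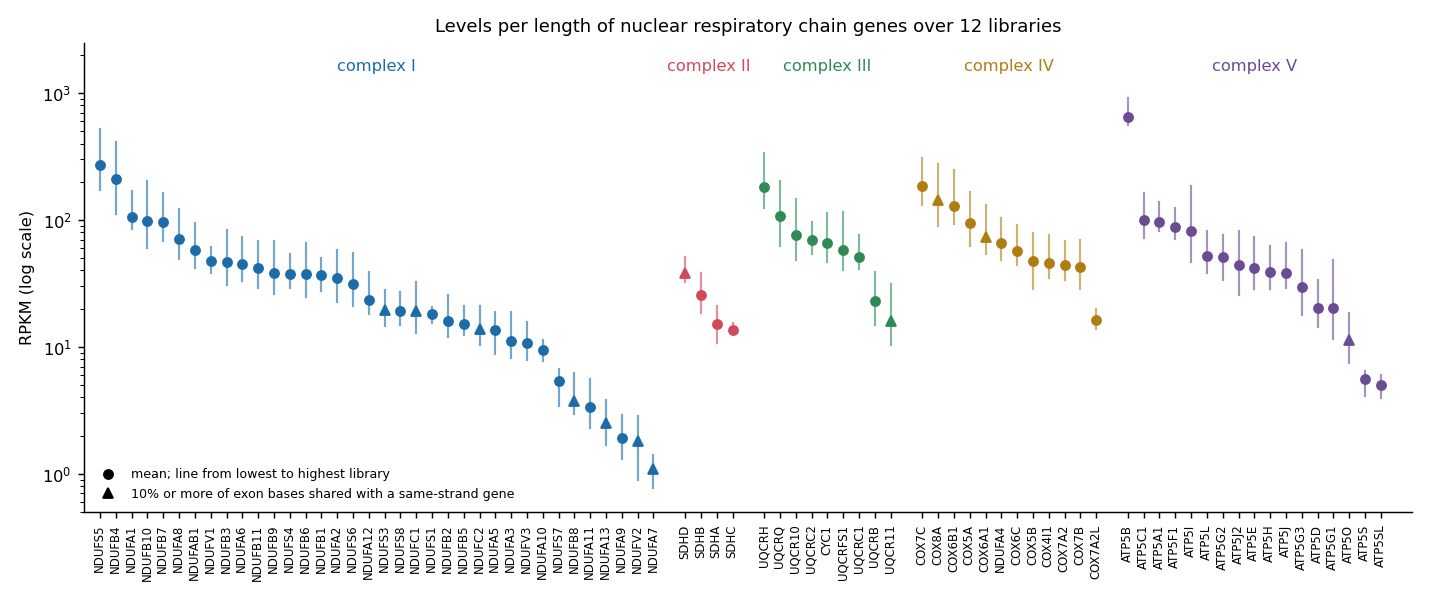
Mean RPKM (log axis) of the tested members but 1, arranged by complex; each point is 1 gene's mean with a line from its lowest to its highest library, and triangles mark members with at least 10% of exon bases shared with a gene on the same strand. ATP5B leads at 648 RPKM, and NDUFA7 is lowest at 1.09 RPKM.

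Most members were high or low in the same libraries. After each gene was centred on its mean over the 12 libraries, the members' median log2 CPM was -0.35, -0.21 and -0.25 in the non-irradiated control libraries and -0.21, -0.15 and -0.16 in the non-irradiated knockdown libraries. It was 0.76, 0.05 and -0.00 in the irradiated control libraries and 0.54, 0.05 and 0.06 in the irradiated knockdown libraries. All 6 irradiated libraries were above all 6 non-irradiated ones, and both libraries numbered 1 stood well above the other irradiated ones.

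**Figure D2:**
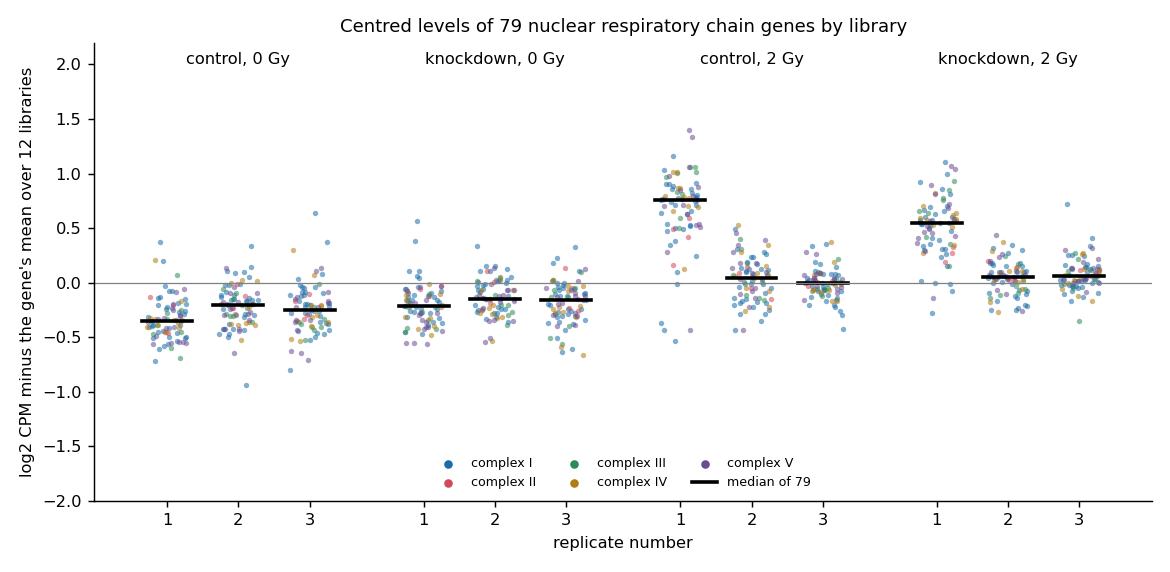
Centred log2 CPM of the 79 members in each of the 12 libraries, by group; points are genes, coloured by complex, and the black line in each library is the members' median. The medians lie between -0.35 and -0.15 without irradiation and between -0.00 and 0.76 with it, with the highest values in the libraries numbered 1.

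The first comparison asked whether PRMT5 knockdown changes these genes in non-irradiated cells. As a group they stayed close to the control: the median log2 fold change was 0.08 (0.00 over all genes), with 56 members above 0 and 23 below. None of the 79 passed an adjusted p of 0.05, where 1.54% of all genes did (edgeR quasi-likelihood test, Benjamini-Hochberg adjustment over all 17191 genes, as for every adjusted p below unless another test is named). At an unadjusted p under 0.05 there were 2 higher (NDUFV2, SDHA; all genes 7.62%) and 3 lower (NDUFA5, NDUFA13, COX5B; all genes 9.82%). DESeq2 called 1 member, NDUFA5, as lower, where it called 6.03% of all genes. Libraries with the same number within a table deviated together, and with these pairs as a block 16 members were called higher and 4 lower (25.3%, where 27.8% of all genes were called). The blocked share in the higher direction was 20.3% (all genes 13.7%), and in the lower direction 5.06% (all genes 14.1%). The 3 knockdown libraries lay wholly above the 3 controls for 24 members (30.4%, all genes 15.4%) and wholly below for 3 (3.8%, all genes 15.8%), 34.2% together where 31.1% of all genes did not overlap. A fit to these 6 libraries alone called NDUFB4 and SDHA higher and NDUFA5 and UQCRFS1 lower, 4 of 79 members, where it called 9.25% of all genes.

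In complex I the median was 0.09 and 25 of 37 members were above 0. NDUFA5, an accessory subunit of the matrix arm (chr7:123536997-123558255), was the lowest. Its controls had 150, 166 and 128 CPM and its knockdowns 109, 114 and 86.4 CPM. The groups did not overlap (log2 fold change -0.52, SE 0.16, adjusted p 0.119, and 0.000175 with the replicate block). NDUFA13, also known as GRIM-19, was lower as well, at 8.60, 7.12 and 10.4 CPM in controls and 6.44, 5.64 and 6.43 CPM in knockdowns (-0.50, SE 0.23, adjusted p 0.283, blocked 0.0318). On the other side, NDUFB4, a membrane-arm subunit (chr3:120596309-120602500), had 220, 268 and 209 CPM in controls and 390, 328 and 318 CPM in knockdowns. Every knockdown was above every control (0.57, SE 0.30, adjusted p 0.362, blocked 0.00516). NDUFV2, an iron-sulfur subunit of the NADH-oxidising module, had the largest positive value: 3.83, 2.40 and 3.78 CPM against 6.94, 4.84 and 5.50 CPM. The groups did not overlap (0.79, SE 0.27, adjusted p 0.161, blocked 0.00377), but levels were low and 28.4% of its exon bases also belong to a neighbour. The flavin-binding subunit NDUFV1 had 166, 202 and 180 CPM in controls and 200, 217 and 221 CPM in knockdowns (0.22, SE 0.17, adjusted p 0.555, blocked 0.0270). NDUFS1, the largest iron-sulfur subunit, stood at 212, 191 and 207 CPM against 215, 215 and 223 CPM (0.10, SE 0.10). NDUFA10, NDUFA2, NDUFA6, NDUFB10, NDUFB3 and NDUFV3 were the other complex I members called higher with the block, with log2 fold changes from 0.19 to 0.37.

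In complex II, which oxidises succinate and belongs to the citric acid cycle as well, the flavoprotein SDHA (chr5:218241-256700) was the member with the clearest difference. It had 90.3, 106 and 101 CPM in controls and 120, 134 and 137 CPM in knockdowns. All 3 knockdowns exceeded all 3 controls (0.39, SE 0.16, adjusted p 0.223, blocked 0.00221). Its iron-sulfur partner SDHB had 45.3, 50.8 and 49.2 CPM against 58.6, 52.5 and 51.6 CPM (0.16, SE 0.16). SDHC, a membrane anchor, differed by 0.10 (SE 0.10), and SDHD, the other anchor, by -0.06 (SE 0.12); no member of the complex besides SDHA passed with the block.

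In complex III, UQCRFS1, the Rieske iron-sulfur protein that hands electrons to cytochrome c1 (chr19:29205321-29213541), had 202, 185 and 192 CPM in controls and 141, 147 and 147 CPM in knockdowns. The groups were separate, and the spread within each was small (-0.41, SE 0.20, adjusted p 0.317, blocked 0.00475). Of its 50-base words 17.4% are also found in transcripts of other genes, most often those of the pseudogene UQCRFS1P1. CYC1, the cytochrome c1 it reduces, lay on the other side, at 92.5, 110 and 98.8 CPM in controls and 112, 131 and 136 CPM in knockdowns (0.33, SE 0.26, adjusted p 0.541, blocked 0.00594). The core proteins UQCRC1 (0.17, SE 0.18) and UQCRC2 (0.10, SE 0.13) were not called, and the small subunits UQCR10 (0.32, blocked adjusted p 0.0121) and UQCRQ (0.29, blocked adjusted p 0.0183) were called higher only with the block.

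In complex IV, COX5B, a nuclear subunit on the matrix side (chr2:97646040-97648383), had the most negative log2 fold change of all members, -0.60 (SE 0.22, adjusted p 0.197, blocked 0.0557). Its controls had 75.8, 45.5 and 80.6 CPM and its knockdowns 46.8, 45.2 and 41.4 CPM. Control replicate 2 lay within the knockdown range, so the groups overlapped. Its partner COX5A had 99.1, 98.1 and 88.2 CPM against 102, 111 and 106 CPM (0.16, SE 0.24), and COX4I1, which binds regulatory nucleotides, 167, 213 and 185 CPM against 198, 204 and 209 CPM (0.11, SE 0.25). COX7A2 differed by 0.14 (SE 0.20) and COX7A2L by -0.05 (SE 0.13). NDUFA4 was the only complex IV member called in the blocked fit (0.22, adjusted p 0.0418).

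In complex V the subunits ATP5A1, ATP5B and ATP5C1 hardly differed. ATP5A1 had 900, 914 and 886 CPM in controls and 910, 957 and 924 CPM in knockdowns (0.05, SE 0.16), and ATP5B 1398, 1300 and 1326 CPM against 1310, 1419 and 1435 CPM (0.05, SE 0.17). ATP5C1, the rotating γ subunit, had 182, 182 and 176 CPM against 169, 175 and 183 CPM (-0.03, SE 0.17). ATP5O, the stalk subunit that holds the catalytic head still (OSCP, chr21:33903453-33915980), was the lowest of the complex at 27.4, 29.7 and 34.3 CPM against 24.8, 25.5 and 27.6 CPM (-0.23, SE 0.15, adjusted p 0.450, blocked 0.0417). Of the c subunit paralogues ATP5G3 differed by 0.34 (SE 0.29, adjusted p 0.585, blocked 0.0149), ATP5G1 by 0.34 (SE 0.41) and ATP5G2 by 0.07 (SE 0.16). ATP5J2 was the other member called higher with the block (0.44, SE 0.31, blocked adjusted p 0.0143).

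In irradiated cells the knockdown also moved no member past the threshold: 0 of 79, where 0.297% of all genes passed. DESeq2 called 0 (all genes 1.75%), and an unadjusted p under 0.05 was reached by 1 higher (NDUFA7, all genes 3.48%) and 1 lower (UQCRFS1, all genes 5.8%). The block called 1 higher, NDUFB4 (1.27%, all genes 5.43%), and 2 lower, NDUFA5 and UQCRFS1 (2.53%, all genes 6.05%). The median was -0.05, with 22 members above 0 and 57 below. That sign was not stable. The members' median difference between knockdown and control was -0.17 in pair 1, 0.02 in pair 2 and 0.08 in pair 3. In the fit the median was 0.04 with both libraries numbered 1 left out, 0.22 without irradiated control replicate 1 (71 of 79 members above 0), 0.04 without irradiated knockdown replicate 2 and 0.02 without irradiated knockdown replicate 3. It was -0.17 without irradiated control replicate 2, -0.19 without irradiated control replicate 3 and -0.25 without irradiated knockdown replicate 1, with 71 of 79 members below 0 in each of these 3 fits.

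UQCRFS1 was the lowest member at 2 Gy. Irradiated controls had 404, 239 and 224 CPM and irradiated knockdowns 214, 175 and 151 CPM. No knockdown reached a control (-0.68, SE 0.20, adjusted p 0.285, blocked 0.00101). Without the libraries numbered 1 it was called in the fit without a block (-0.51, adjusted p 0.0289), as was NDUFB4 in the other direction (0.59, adjusted p 0.0492), in a fit that called 1.87% of all genes. NDUFB4 had 680, 319 and 295 CPM in irradiated controls and 780, 439 and 484 CPM in irradiated knockdowns (0.40, SE 0.30, adjusted p 0.753, blocked 0.0291). Each knockdown exceeded its own pair, while the groups overlapped because both libraries numbered 1 were high. NDUFA5 had 141, 185 and 138 CPM against 125, 146 and 117 CPM (-0.26, SE 0.16, adjusted p 0.663, blocked 0.0203). COX5B differed by -0.39 (SE 0.22, adjusted p 0.638) and ATP5O by -0.20 (SE 0.14, adjusted p 0.722). NDUFA7, at 1.14, 1.09 and 1.10 CPM against 1.5, 1.86 and 1.80 CPM, did not overlap between groups (0.63, SE 0.25, adjusted p 0.448), at a level near the lowest tested. Groups failed to overlap for NDUFA7 (1 member higher, all genes 5.82%) and UQCRFS1 (1 member lower, all genes 7.72%) only.

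Taking the 6 numbered pairs of both irradiation states together, 6 members were higher in the knockdown of every pair: NDUFA10, NDUFB4, NDUFS1, NDUFV2, NDUFV3 and SDHC. That is 7.59% of members, against 14.5% of all genes. Another 4 were lower in every pair, NDUFA5, UQCRFS1, COX5B and ATP5O (5.06%, against 14.4% of all genes), where COX5B in pair 2 without irradiation differed by only -0.01. Both shares were below those of all genes, a difference that was not tested.

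**Figure D3:**
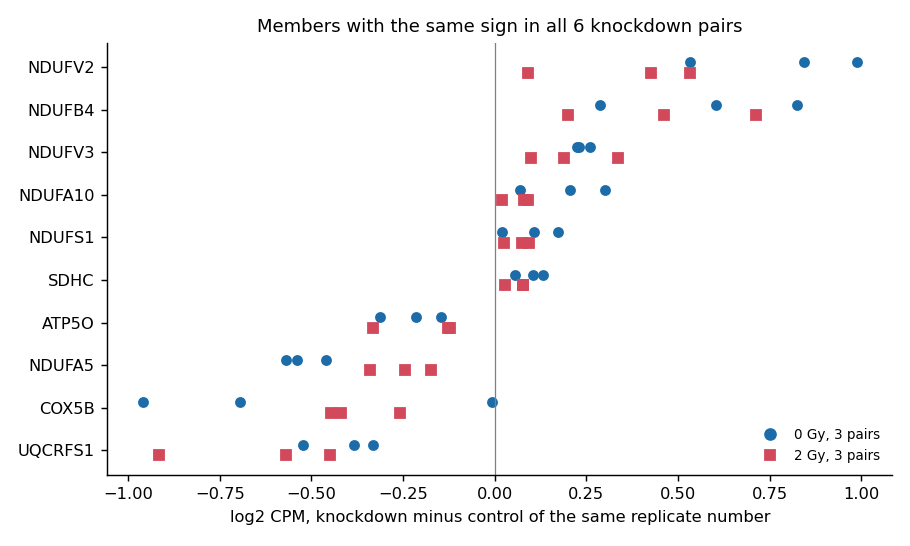
Knockdown minus control, in log2 CPM, for each numbered pair without and with irradiation, for the 10 members with 1 sign in all pairs; circles are pairs at 0 Gy, squares pairs at 2 Gy, and the line at 0 marks no difference. UQCRFS1 and NDUFA5 lie below 0 and NDUFB4 above 0 in all 6 pairs.

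The knockdown effect itself was compared between irradiation states. No member passed, and no gene did (0% of 17191); at an unadjusted p under 0.05 there were 0 members and 2.04% of all genes, and DESeq2 called 0 members (all genes 0.00583%). The members' median difference of effects was -0.13, with 14 above 0 and 65 below. It was 0.16 without irradiated control replicate 1, -0.30 without irradiated knockdown replicate 1 and -0.02 without both, so its sign depended on these libraries. The knockdown effects on UQCRFS1 and NDUFB4 at 0 and 2 Gy were therefore not shown to differ.

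Irradiated libraries were then compared with non-irradiated ones in each arm. Nuclear respiratory chain genes were higher almost throughout: in controls 76 of 79 members were above 0, with a median log2 fold change of 0.55, where the median over all genes was -0.00. Of these 7 rose and 0 fell (8.86%, all genes 2.26%, of which 1.38% higher and 0.878% lower). In knockdowns 76 of 79 were above 0 with a median of 0.42, and 3 rose and 0 fell (3.8%, all genes 3.58%, of which 2.18% higher and 1.4% lower). Without both libraries numbered 1, 73 members were above 0 and 6 below in controls, and 69 above and 10 below in knockdowns. All 3 irradiated libraries lay above all 3 non-irradiated ones for 50 members in controls (63.3%, all genes 13.7%) and for 49 in knockdowns (62%, all genes 15.8%). The comparisons use different libraries but share the tables. The median log2 fold change in controls and knockdowns was 0.46 and 0.38 for complex I, 0.38 and 0.23 for complex II, 0.71 and 0.50 for complex III, 0.54 and 0.52 for complex IV and 0.72 and 0.53 for complex V. Leaving out the libraries numbered 1 lowered these medians to 0.24 and 0.22 for complex I, 0.20 and 0.18 for complex II, 0.41 and 0.17 for complex III, 0.28 and 0.28 for complex IV and 0.30 and 0.26 for complex V.

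The count of calls depended on single libraries. The share of all genes called moved as well and is given in brackets. In controls the count of members was 0 without non-irradiated control replicate 1, 2 or 3 (1.95%, 0.221% and 0.136%), non-irradiated knockdown replicate 2 (0.917%), irradiated control replicate 1 (1.1%) or irradiated knockdown replicate 2 (0.998%). It was 1 without non-irradiated knockdown replicate 3 (1.19%) or irradiated control replicate 2 (0.587%), and 2 without non-irradiated knockdown replicate 1 (1.73%) or irradiated knockdown replicate 3 (1.18%). It was 7 without irradiated control replicate 3 (1.49%) and 12 without irradiated knockdown replicate 1 (3.67%). In knockdowns it was 0 without non-irradiated knockdown replicate 1, 2 or 3 (1.23%, 0.43% and 0.786%) or irradiated knockdown replicate 1 or 2 (1.58% and 0.524%). It was 1 without non-irradiated control replicate 1, 2 or 3 (2.77%, 1.61% and 1.49%) or irradiated control replicate 2 (2.29%), and 2 without irradiated control replicate 3 (2.61%) or irradiated knockdown replicate 3 (1.24%). It was 25 without irradiated control replicate 1 (8.43%). With both libraries numbered 1 left out, a choice made after seeing that they stood apart, the medians were 0.27 and 0.25 and the calls 19 in controls (all genes 4.97%, and 2.7% in the higher direction) and 21 in knockdowns (all genes 10.3%, and 5.28% in the higher direction). Of these, 16 members were shared between the arms. All 7 members called in controls with all libraries were among the 19, with values from 0.45 (UQCRC2) to 0.63 (ATP5D).

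**Figure D4:**
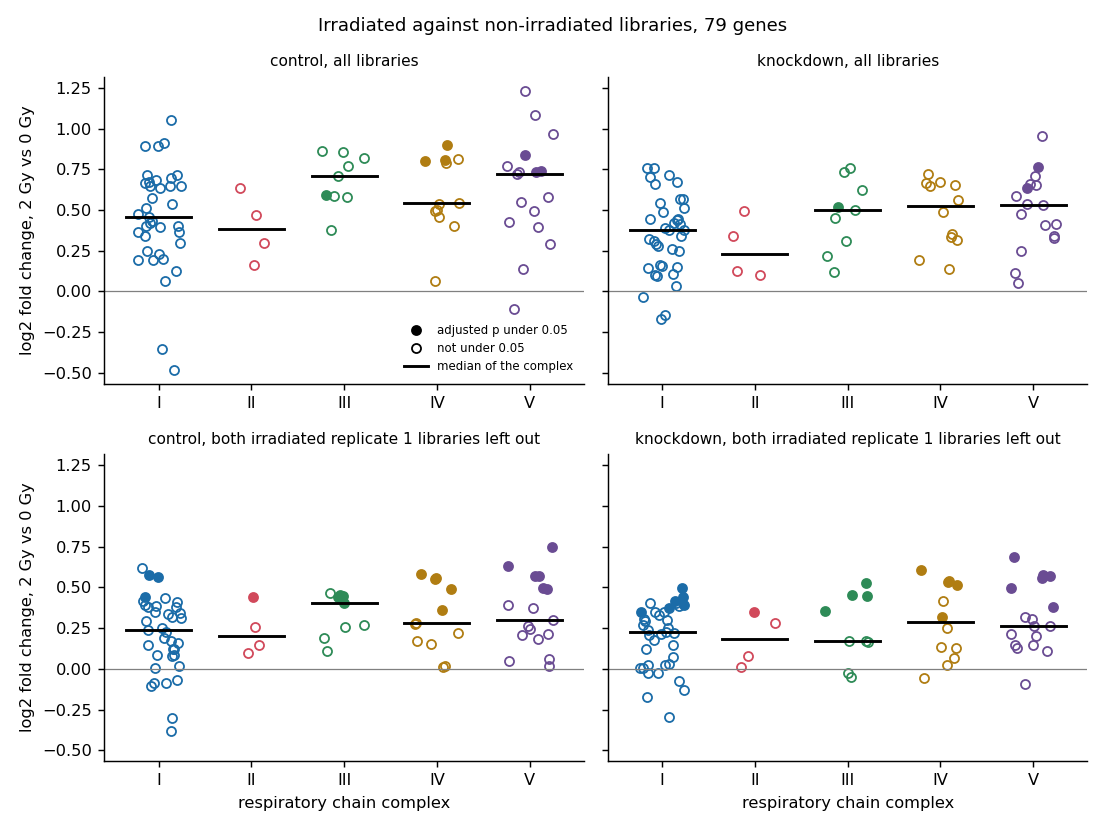
Log2 fold change of 2 Gy against 0 Gy for each of the 79 members, by complex, in controls (left) and knockdowns (right), with all libraries (top) and without both irradiated replicate 1 libraries (bottom); filled circles are called members and lines are medians per complex. With all libraries the called members belong to complexes III, IV and V, and without replicate 1 the medians are lower and more members are called.

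No complex I member was called in either arm with all libraries. Without the libraries numbered 1, 3 of 37 were called higher in controls and 6 in knockdowns (all genes 2.7% and 5.28%). NDUFB10, NDUFB3 and NDUFS5 were called in both arms, and NDUFB4, NDUFB6 and NDUFB9 in knockdowns. The nuclear core subunits of complex I include those that carry the flavin and the iron-sulfur clusters. With all libraries the core subunits differed in controls by values from 0.13 (NDUFV1) to 0.46 (NDUFV2). Without the libraries numbered 1 the values ran from -0.09 (NDUFV1) to 0.62 (NDUFV2), so the rise was not seen in all of them. NDUFS1 had 222, 242 and 236 CPM in irradiated controls and 226, 254 and 252 CPM in irradiated knockdowns, in each arm above the non-irradiated values given earlier, but by little (0.20, SE 0.10, and 0.17, SE 0.10). NDUFV1 had 253, 159 and 186 CPM in irradiated controls, with replicate 2 below all 3 non-irradiated controls (0.13, SE 0.17). Of the accessory subunits, NDUFB10, of the membrane arm, had 63.9, 70.3 and 68.8 CPM in non-irradiated controls and 218, 103 and 100 CPM in irradiated ones (1.05, SE 0.30, adjusted p 0.0864). NDUFB3, also of the membrane arm, had 36.0, 36.5 and 34.0 CPM against 92.8, 53.7 and 51.4 CPM (0.89, SE 0.22, adjusted p 0.0567). Both were separate between groups and both were called without the libraries numbered 1, in controls and in knockdowns. NDUFA13 was the complex I member with the lowest value in controls (-0.48, SE 0.22, adjusted p 0.238), followed by NDUFA7 (-0.35, SE 0.25, adjusted p 0.429).

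In complex II, SDHB had 93.7, 68.4 and 63.8 CPM in irradiated controls and 91.5, 71.0 and 67.0 CPM in irradiated knockdowns. All 6 values exceeded all 6 non-irradiated ones (0.64, SE 0.16, adjusted p 0.0602 in controls, and 0.50, SE 0.16, adjusted p 0.109 in knockdowns). It was the only complex II member called without the libraries numbered 1 (0.44 in controls and 0.35 in knockdowns). SDHA had 175, 112 and 125 CPM in irradiated controls (0.47, SE 0.16, adjusted p 0.120) and 157, 127 and 136 CPM in irradiated knockdowns (0.10, SE 0.16). SDHC differed by 0.16 (SE 0.10) and SDHD by 0.30 (SE 0.12) in controls.

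In complex III all 9 members were above 0 in both arms, and without the libraries numbered 1 there were 9 in controls and 7 in knockdowns. UQCRC2, a core protein of the matrix face (chr16:21952660-21983660), rose in both. It had 283, 288 and 283 CPM in non-irradiated controls, 505, 404 and 380 CPM in irradiated controls, 282, 309 and 327 CPM in non-irradiated knockdowns and 476, 422 and 415 CPM in irradiated knockdowns. Groups were separate in each arm, also without the libraries numbered 1 (0.59, SE 0.13, adjusted p 0.0379 in controls, and 0.52, SE 0.13, adjusted p 0.0462 in knockdowns). Its partner UQCRC1 had 246, 150 and 158 CPM in irradiated controls, overlapping the non-irradiated 134, 153 and 139 CPM (0.38, SE 0.18, adjusted p 0.245). UQCRFS1 differed by 0.58 (SE 0.20, adjusted p 0.130) in controls and 0.31 (SE 0.20, adjusted p 0.400) in knockdowns, and CYC1 by 0.59 (SE 0.26) and 0.22 (SE 0.26). UQCRB, UQCRH, UQCRQ, UQCR10 and UQCR11, the small subunits, ranged from 0.71 to 0.87 in controls and none was called with all libraries. Without the libraries numbered 1, UQCR10, UQCRH and UQCRQ were called higher in controls, and UQCRB, UQCRH and UQCR11 in knockdowns.

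In complex IV, 3 members rose in controls. COX8A, a small subunit (chr11:63974607-63976543), had 52.7, 52.7 and 56.0 CPM without and 139, 72.6 and 89.3 CPM with irradiation (0.90, SE 0.20, adjusted p 0.0457); 34.5% of its exon bases also belong to a neighbour on the same strand. COX7C (chr5:86617904-86620962) had 262, 277 and 280 CPM against 620, 397 and 407 CPM (0.80, SE 0.17, adjusted p 0.0408). COX7B (chrX:77899438-77907373) had 97.5, 94.2 and 86.4 CPM against 212, 157 and 118 CPM (0.80, SE 0.19, adjusted p 0.0476). For these 3 no irradiated library came down to the non-irradiated level, and replicate 1 was the highest. In knockdowns COX8A differed by 0.72 (SE 0.20, adjusted p 0.0769), COX7C by 0.65 (SE 0.17, adjusted p 0.0669) and COX7B by 0.66 (SE 0.19, adjusted p 0.0774). All 3 were called in knockdowns without the libraries numbered 1. COX4I1, at 363, 182 and 201 CPM in irradiated controls, overlapped the non-irradiated range (0.40, SE 0.25, adjusted p 0.360). COX5A stood at 233, 155 and 114 CPM (0.81, SE 0.24, adjusted p 0.0939) and COX5B at 113, 94.5 and 69.7 CPM (0.46, SE 0.22, adjusted p 0.250). Without the libraries numbered 1 COX5A was called in controls (0.49, adjusted p 0.0413), and COX5B was not. Of the related COX7A2 and COX7A2L, the first differed by 0.50 (SE 0.20) and the latter by 0.06 (SE 0.12) in controls.

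Complex V had 3 calls in controls, of which 2 were also called in knockdowns. ATP5O had 61.4, 47.5 and 43.5 CPM in irradiated controls and 48.8, 43.7 and 39.9 CPM in irradiated knockdowns. These 6 values all lay above the 24.8 to 34.3 CPM of the non-irradiated libraries (0.74, SE 0.15, adjusted p 0.0289 in controls, and 0.76, SE 0.15, adjusted p 0.0196 in knockdowns). Among called members it kept its call in the most settings, 13 of 21 alternative settings in controls and 16 of 21 in knockdowns, although 19.6% of its exon bases overlap a neighbour. ATP5G2, a c subunit gene (chr12:53632726-53677408), had 135, 148 and 178 CPM in non-irradiated controls and 307, 217 and 241 CPM in irradiated ones, and 146, 156 and 181 CPM against 278, 227 and 246 CPM in knockdowns. The groups were separate in both arms (0.73, SE 0.16, adjusted p 0.0388, and 0.64, SE 0.16, adjusted p 0.0482). ATP5D, the δ subunit of the central stalk (chr19:1241746-1244826), had 34.7, 32.1 and 34.5 CPM against 76.1, 59.9 and 44.9 CPM in controls (0.84, SE 0.19, adjusted p 0.0472) and differed by 0.71 in knockdowns (SE 0.19, adjusted p 0.0685). It was called in knockdowns without the libraries numbered 1 (0.57, adjusted p 0.0269).

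The other c subunit genes had larger but more variable values. ATP5G1 had 32.6, 37.6 and 30.4 CPM against 126, 40.8 and 46.3 CPM in controls (1.08, SE 0.42, adjusted p 0.163), where replicate 1 carried most of the difference. ATP5G3 had 126, 139 and 121 CPM against 391, 174 and 190 CPM (0.96, SE 0.29, adjusted p 0.0939). It was called in both arms without the libraries numbered 1, at 0.49 (adjusted p 0.0243) and 0.38 (adjusted p 0.0442). The largest log2 fold change of all members was that of ATP5I, a small membrane subunit, at 47.0, 44.1 and 50.9 CPM against 174, 87.3 and 72.2 CPM (1.23, SE 0.32, adjusted p 0.0645). Without the libraries numbered 1 ATP5I was called in both arms, at 0.75 and 0.58. Its exons overlap those of MYL5 for 61.6% of their bases, with strand ignored. The catalytic head subunits ATP5B and ATP5A1 had smaller values than these: ATP5B had 2116, 1411 and 1391 CPM in irradiated controls (0.29, SE 0.17) and ATP5A1 1503, 998 and 1050 CPM (0.39, SE 0.16). ATP5C1 had 382, 272 and 238 CPM (0.72, SE 0.17, adjusted p 0.0514). Leaving out the libraries numbered 1 gave calls for ATP5C1 in both arms, at 0.50 in each (adjusted p 0.0130 and 0.00788). ATP5S and ATP5SL, which are not textbook subunits, had -0.11 (SE 0.15) and 0.14 (SE 0.16).

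The size of the irradiation difference went with the length of the gene's merged exons within the members. Members under 1500 bases had a median log2 fold change of 0.70 in controls, followed by 0.64 (from 1500 to under 2500 bases), 0.50 (to under 4000), 0.40 (to under 7000) and 0.22 (7000 bases or more, 10 members). Other genes of these classes had medians of -0.12, 0.07, 0.07, 0.01 and -0.05. These were lowest under 1500 bases and fell from 1500 bases up, over a narrower range than in the members. Over the 79 members, which share the same libraries, Pearson's r of log2 length with the log2 fold change was -0.43 and Spearman's rho -0.48 in controls, and -0.39 and -0.41 in knockdowns, given as a description. Over the other 17112 genes r was 0.07 in controls. Without the libraries numbered 1 the medians of the 5 classes in controls were 0.35, 0.31, 0.25, 0.10 and 0.15, r was -0.25 and rho -0.30, and in knockdowns r was -0.19 and rho -0.21. The 12 members with at least 10% same-strand overlap had a median of 0.50 in controls and 0.33 in knockdowns, with 83.3% above 0 in each, and the other 67 had 0.57 and 0.42, with 98.5% above 0 in each. Leaving out the libraries numbered 1 gave medians of 0.21 and 0.20 with such overlap, and 0.27 and 0.25 for the others. For the knockdown at 0 Gy the medians were 0.03 (50% above 0) with such overlap and 0.10 (74.6% above 0) for the others. The part of overlap in these differences was not tested. Members with the NRF1 word in their promoter had a median of 0.64 in controls and those without it 0.54. For the GABPA word these medians were 0.55 and 0.58, and for the YY1 word 0.39 and 0.58. With those libraries left out they were 0.29 and 0.27 for NRF1, 0.27 and 0.31 for GABPA and 0.15 and 0.31 for YY1.

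**Figure D5:**
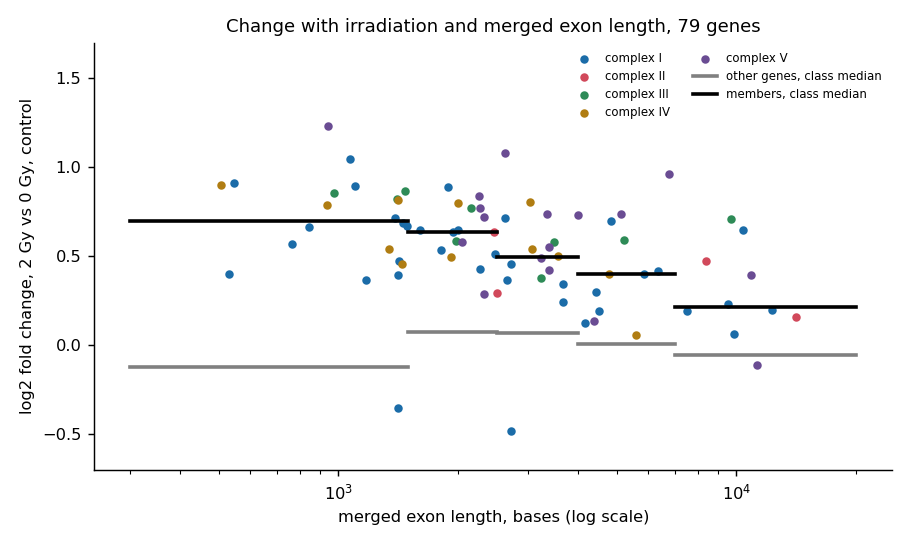
Log2 fold change of 2 Gy against 0 Gy against merged exon length in bases (log axis), in controls; points are the 79 members, coloured by complex, and the black and grey lines are the medians of members and of other genes in 5 length classes. Short members lie highest, with a median of 0.70 in controls under 1500 bases. The medians of other genes lie between -0.12 and 0.07 and are lowest under 1500 bases.

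Other genes of the pathway were read from fixed lists, chosen with results of these data known. The 13 mitochondrially encoded subunits, made in the organelle for complexes I, III, IV and V, had a median of 0.28 for the knockdown at 0 Gy and 0.17 at 2 Gy, with 0 called. With the block 8 of them were called higher at 0 Gy, where 13.7% of all genes were. After irradiation their medians were 0.43 in controls and 0.33 in knockdowns, and 0.38 and 0.30 without the libraries numbered 1. MT-ATP8, a small subunit of the ATP synthase, had 119, 156 and 139 CPM in non-irradiated controls, 793, 675 and 654 CPM in irradiated controls, 252, 210 and 155 CPM in non-irradiated knockdowns and 1097, 718 and 830 CPM in irradiated knockdowns. It rose in both arms (2.36, adjusted p 0.000246, and 2.10, adjusted p 0.000674) and was called in all 21 alternative settings of each; 22.2% of its bases also belong to a neighbour on the same strand. With all libraries MT-ND5 was the only other mitochondrial gene called, in irradiated knockdowns. Without the libraries numbered 1, 3 of the 13 were called higher in each arm (all genes 2.7% in controls and 5.28% in knockdowns). These were MT-ATP8 and MT-ND5 in both, MT-CO2 in controls and MT-CYB in knockdowns.

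Assembly factors help subunits into the complexes without staying in them. Of 46 tested, the knockdown lowered 1, ATPAF1, in both irradiation states (all genes 1.2% lower at 0 Gy and 0.291% at 2 Gy). ATPAF1, which guides the assembly of the catalytic head of the ATP synthase, had 167, 164 and 160 CPM in non-irradiated controls and 82.4, 102 and 106 CPM in non-irradiated knockdowns. It had 236, 240 and 219 CPM in irradiated controls and 150, 143 and 131 CPM in irradiated knockdowns. Knockdowns were below controls throughout (-0.76, SE 0.11, adjusted p 0.00884 at 0 Gy, and -0.71, SE 0.11, adjusted p 0.0205 at 2 Gy). Without non-irradiated knockdown replicate 2 the adjusted p at 0 Gy was 0.0532; in all, 19 of 20 settings kept the call at 0 Gy and 13 of 21 at 2 Gy. ATPAF1 also rose with irradiation, by 0.50 in controls (adjusted p 0.0447) and by 0.55 in knockdowns (adjusted p 0.0288). Of the catalytic head, ATP5A1 and ATP5B differed by 0.05 each in the knockdown at 0 Gy and by -0.01 and 0.01 at 2 Gy. With irradiation PET117, PET100 and ATPAF1 were the list members called higher in controls, and PET117 and ATPAF1 in knockdowns. PET100 was also called in knockdowns without the libraries numbered 1 (0.87, adjusted p 0.0371). Of the exon bases of PET117 62.4%, and of those of PET100 12.8%, belong to a neighbour as well. The median over the list was 0.05 and -0.02 for the knockdown and 0.20 and 0.23 for irradiation, and for irradiation 0.06 and 0.16 without the libraries numbered 1.

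Among 13 tested regulators of mitochondrial biogenesis, the medians for the knockdown were 0.06 and 0.07 and for irradiation 0.26 and 0.22 (0.26 and 0.25 without the libraries numbered 1). NRF1, the factor whose word is in the ATP5J, SDHB and ATP5G2 promoters above, went the other way from the subunits. It had 35.8, 48.0 and 49.2 CPM in non-irradiated controls and 15.7, 20.8 and 25.6 CPM in irradiated controls. In knockdowns it had 41.1, 25.2 and 25.7 CPM without and 16.4, 14.2 and 16.9 CPM with irradiation. It fell with irradiation in both arms (-1.10, SE 0.22, adjusted p 0.0320, and -0.95, SE 0.22, adjusted p 0.0416), a call kept in 14 and 10 of 21 settings. MYC rose in irradiated knockdowns (0.73, adjusted p 0.0336) and differed by 0.66 in controls (adjusted p 0.0510). It was called higher in both arms without the libraries numbered 1 (adjusted p 0.0389 in controls and 0.0195 in knockdowns). The neighbour GABPA was not called in any comparison. WDR77 differed by -0.32 and -0.50 in the knockdown and was not called (adjusted p 0.433 and 0.437), but was called lower with the block (0.0181 and 0.00545), while ATP5F1, which starts beside it, differed by -0.02 and -0.04.

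The 13 citric acid cycle genes had medians of 0.15 and 0.02 for the knockdown and 0.27 and 0.19 for irradiation, with 0 called. The 11 tested isoforms and carriers had 0.06, -0.08, 0.49 and 0.43, with 0 called. Without the libraries numbered 1 the irradiation medians were 0.15 and 0.12 for the citric acid cycle, with FH called higher in each arm, and 0.29 and 0.25 for the isoforms and carriers, with 3 called higher in controls (C14orf2, HIGD2A and USMG5) and 1 higher (USMG5) and 1 lower (NDUFA4L2) in knockdowns. The 78 mitochondrial ribosomal proteins had 0.13 and 0.01 for the knockdown, with 1 called lower at 0 Gy (MRPS14, -0.57, adjusted p 0.0169), and 0.47 and 0.31 for irradiation, with 3 and 9 called higher. The 84 tested cytosolic ribosomal proteins had -0.06 and -0.04 for the knockdown, with 1 called lower at 0 Gy (RPL13, -1.32, adjusted p 0.0333). With the block 3 were called higher and 15 lower there, where 13.7% and 14.1% of all genes were. For irradiation they had 0.63 and 0.67, with 23 and 38 called higher. Of all genes, 1.2% were called lower at 0 Gy without the block. After irradiation 1.38% of all genes were called higher in controls and 2.18% in knockdowns. With the libraries numbered 1 left out the irradiation medians were 0.19 and 0.14 for mitochondrial ribosomal proteins, with 7 and 16 called higher. For cytosolic ones they were 0.41 and 0.54, with 34 and 52 called higher and 1 lower (RPL10L) in knockdowns. In these fits 2.7% of all genes in controls and 5.28% in knockdowns were called higher. In the irradiated libraries numbered 1, the centred median was 0.63 and 0.53 for cytosolic and 0.57 and 0.47 for mitochondrial ribosomal proteins, in control and knockdown. The medians of the 20 G2/M and mitosis genes were 0.94 and -1.07 for the knockdown at 0 and 2 Gy and 1.47 and -0.51 for irradiation in controls and knockdowns, with 1 gene called in all. Their centred median was 0.45, -2.23 and -1.37 in the non-irradiated controls, so that replicate 1 stood apart from its mates there, and -0.44, 0.63 and 0.64 in the non-irradiated knockdowns. It was 0.99, 0.75 and 0.65 in the irradiated controls and 0.37, -0.49 and -0.51 in the irradiated knockdowns. The part of growth state in the members' values was not tested.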

How the data were processed

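Polyadenylated RNA was sequenced, per the labels' protocols. The authors deposited raw counts per gene in a table for each irradiation state. Build GRCh38 and the tools featureCounts, STAR 2.5, edgeR 3.20.8 and Subread 1.5.3 come from the submitters' processing notes; strand setting and annotation release: not given in the sources used here. Here the counts were fitted with edgeR 4.0.16 (R 4.3.3): filterByExpr (minimum count 10, total 15), TMM, and 1 robust quasi-likelihood model of 4 group means over all 12 libraries (8 residual degrees of freedom). Genes were called at an adjusted p under 0.05. Centred levels use log2 CPM with a prior count of 2. Same-numbered libraries within a table correlated in their deviations (0.233, 0.255 and 0.296 at 0 Gy, and 0.775, 0.613 and 0.607 at 2 Gy). They were therefore taken as pairs in the blocked fits, and this pairing comes from the data and the labels' numbers. At 2 Gy the libraries numbered 2 and 3 also correlated with each other between control and knockdown (0.396 and 0.476). The part of the outlying libraries numbered 1 in the values at 2 Gy was not tested. Exon overlaps used coordinates in the count tables, and shared words GENCODE 29 transcripts. Alternatives used DESeq2 1.42.0 and limma 3.58.1. Members were named by role, paralogy, call or smallest p per complex; list genes called after irradiation, and RPL13, were named after their values were seen. The values of 1 member are not reported here; it stays in all counts and medians. Members and lists were chosen with earlier results of these data known. The fits of the knockdown at 0 Gy, without and with the block, were run on simulated counts. These counts held no pairing, irradiation effect or outlying libraries, so they cannot test the fits for those features.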

Additional observations from a re-analysis of the deposited data

How the results depend on the processing

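Single genes were followed over the settings for members named by role, paralogy, a call in the main fit or smallest p. ATPAF1, NRF1, MYC, MRPS14, PET117 and MT-ATP8 were followed as well, and other genes were not. Among the genes followed, no called gene changed direction under any setting. The medians of the knockdown at 2 Gy and of the difference of knockdown effects turned in sign as given above. At 0 Gy the knockdown called 0 members without a block, 20 with the replicate block, 1 with DESeq2 and 4 with only the libraries compared (all genes 1.54%, 27.8%, 6.03% and 9.25%). At 2 Gy it called 3 with the block (11.5%) and 2 with both irradiated libraries numbered 1 left out (1.87%). For irradiation in controls (7 members, all genes 2.26%) the count was 13 with the replicate block (5.61%), 21 with DESeq2 (8.02%), 4 with limma-voom (2.47%), 11 with no filter (1.73%), 4 with a mean of at least 5 CPM (2.09%), 0 with only the libraries compared (0.392%), 19 without both libraries numbered 1 (4.97%), and 0 to 12 when 1 library was left out. For irradiation in knockdowns (3 members, 3.58%) it was 7 with the replicate block (6.73%), 1 with library size only (4.92%), 1 with median-of-ratios size factors (3.48%), 10 with DESeq2 (8.38%), 8 with no filter (1.68%), 21 without both libraries numbered 1 (10.3%), and 0 to 25 when 1 library was left out. Numbers did not pair libraries across tables (correlations -0.150 to 0.143), so the block for irradiation rests on shared numbers alone. With library size only, the median over all genes moved to -0.16 in controls and -0.15 in knockdowns, and the members' medians were 0.38 and 0.26. The difference of knockdown effects has no value with only the libraries compared, which needs all 4 groups. The genes followed kept their side of the threshold in 4434 gene and setting combinations, passed it in 101 and lost it in 188. Most of the 4434 were genes not called in the main fit that stayed uncalled, while all 188 losses were of calls in the main fit. Those calls were kept in as few as 6 of 21 settings (COX7B in controls, UQCRC2 in knockdowns). MT-ATP8 kept its call in all 21 in both arms. The cause of these moves was not tested.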
